A study of Mus musculus with 9 samples.

Results

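The nuclear genes of the oxidative phosphorylation machinery were examined in RNA-seq counts of mouse spleen plasma cells. Members were taken by symbol: all genes named Nduf, Uqcr, Cox4i, Cox5, Cox6, Cox7, Cox8 or Atp5, with Sdha, Sdhb, Sdhc, Sdhd and Cyc1 and without 4 pseudogene rows. This gave 93 of the 46958 genes in the table. They comprised 36 complex I subunits, 7 Ndufaf assembly factors of complex I, 4 genes of complex II, 9 of complex III, 20 of complex IV and 17 of complex V. Atp5s and Atp5sl, counted with complex V, and Cox7a2l and Ndufa4l2, counted with complex IV, are factors or relatives rather than core subunits.

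Plasma cells were bead-purified by CD138, a surface protein of antibody-secreting cells, from spleens of 3-month-old mice that had received no immunization. The 9 libraries came from 9 mice of 1 mixed C57/BL6x129/SVxBALB/c background, with 3 mice each of the genotypes DH-LMP2A, kFRA and WT. The series asks how plasma cells are harmed by the free light chain that kFRA mice carry, taken from LCDD, light chain deposition disease. As background, DH-LMP2A mice carry the viral membrane protein LMP2A in the heavy chain locus and form B cells that lack heavy chains. The labels used here give only these genotype names, so the remaining alleles of each group, and whether kFRA mice share the LMP2A allele, are not given. Each bead fraction still held other cells, per the labels.

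Oxidative phosphorylation passes electrons from NADH (complex I) or succinate (complex II) through ubiquinone, complex III and cytochrome c to oxygen at complex IV, and the proton gradient so formed drives ATP synthesis by complex V. Most subunits are encoded in the nucleus, while a small set, including the proton-pumping core of complex I, is encoded in mitochondrial DNA. Antibody secretion consumes much ATP. The assembly of complexes I, III, IV and V needs subunits of both genomes, while the subunits of complex II are all nuclear.

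Total counts ranged from 15449026 to 21558128 per library, and 3 counts, taken as the floor of detection, were worth 0.139 to 0.194 CPM, the count scaled to a common library total. No 2 replicates agreed within sampling noise. All 8 plasma cell markers were detected in every library, with summed levels of 18890 to 47160 CPM. Markers of other spleen cells were detected too. B cell markers summed to 415.3 to 590.3 CPM in DH-LMP2A, 231.9 to 291.3 CPM in kFRA and 332.8 to 657.7 CPM in WT, and myeloid markers to 524.3 to 1603, 871.3 to 1528 and 1986 to 3368 CPM. T cell markers summed to 78.59 to 156.1 CPM over the 9 libraries. Erythroid markers summed to 2426 to 12850 CPM in DH-LMP2A, 1094 to 2584 CPM in kFRA and 49.74 to 333 CPM in WT. In kFRA against DH-LMP2A, 0 of 8 B cell, 0 of 8 T cell and 1 of 8 plasma cell markers were estimated higher, with median log2 fold changes of −0.81, −0.56 and −0.41, and against WT 0 of 8 B cell and 7 of 8 plasma cell markers, with −1.83 and 0.385. None of the genes of these 5 lists was at 0 in any library. An alternative fit, described at the end, took the B cell, T cell, myeloid and erythroid markers together as a covariate. Fewer members passed in it in both comparisons with WT. The part of each cell type in the differences below was not tested. In bulk RNA, fewer cells of a type and less RNA per cell cannot be told apart.

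Of the 93 members, 89 passed the filter on low counts and were tested among 14199 genes. The 4 others are tissue-restricted isoforms of complex IV. Cox7b2, Cox8b and Cox8c had no counts in any library, below the floor of 3 counts. Cox7a1, the muscle isoform of subunit 7a, had 9 counts over the 3 DH-LMP2A libraries, 14 over kFRA and 9 over WT.

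The promoters of the members were read first, because short motifs for the regulators NRF1 and GABP (an ETS-family factor) are known from many respiratory genes. A RefSeq table for GRCm38.p6 held windows of 250 bases before and 50 after the start for 73 of the 93 members. GCGCATGC, an NRF1-type core, occurred on either strand in 12 of the 73 windows (16.4%), against 3.05% of the 27025 genes in the table. CCGGAAG, an ETS-type core, occurred in 17 of the 73 (23.3%), against 9.93% of all genes. Of 69 mitochondrial ribosome genes in the table, 11.6% held the NRF1-type and 37.7% the ETS-type core. Among the members, the 32 windows of complex I held them in 9.38% and 12.5%. The NRF1-type core overlaps its own reverse complement where it is followed by GC. The stretches below show matches before the RefSeq start of members described later, with the motif or its reverse complement in capitals, as the table gives the sense strand of each gene. The printed stretches of Sdhb and Atp5g2 lie inside, and those of Uqcrh, Cox6b1 and Atp5h partly inside, the gene as the deposited table spans it, and all 5 overlap an exon in GENCODE M21. Cox6a1 held an ETS-type core as well, which is not printed. A match describes letters and not a bound site.
Ndufa6, NRF1-type, chr15:82354356-82354385, minus strand: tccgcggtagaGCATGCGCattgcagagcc
Sdhb, NRF1-type, chr4:140961206-140961235, plus strand: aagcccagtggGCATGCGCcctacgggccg
Cox6a1, NRF1-type, chr5:115349100-115349129, minus strand: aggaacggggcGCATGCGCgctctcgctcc
Atp5g2, NRF1-type, chr15:102671069-102671098, minus strand: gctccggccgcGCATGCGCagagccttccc
Sdhd, ETS-type, chr9:50603878-50603906, minus strand: ccgtctcctgcCTTCCGGttcacgcttca
Uqcrh, ETS-type, chr4:116075071-116075091, minus strand: agtatgccgcaCTTCCGGcca
Cox6b1, ETS-type, chr7:30626125-30626153, minus strand: tcctctcgcagCTTCCGGccagtcggaat
Atp5h, ETS-type, chr11:115419940-115419968, minus strand: caaggagagaaCTTCCGGcaactctcttc

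Of the 7 members that passed the test in any comparison below, 5 had an entry in the promoter table, and Ndufa4l2 and Cox6a2 are named only. Among those 5, Ndufa6 held an NRF1-type core before its start, and Cox6b2, Ndufs7, Ndufa1 and Cox7a2l held neither motif there. The window before the start of Cox7a2l, the member that passed the test between DH-LMP2A and WT, is given whole.
Cox7a2l, chr17:83514334-83514583, minus strand: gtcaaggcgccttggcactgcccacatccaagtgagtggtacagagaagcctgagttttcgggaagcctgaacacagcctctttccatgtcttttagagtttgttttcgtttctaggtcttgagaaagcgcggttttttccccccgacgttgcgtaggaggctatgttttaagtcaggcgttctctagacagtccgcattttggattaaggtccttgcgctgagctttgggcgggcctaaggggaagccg

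Levels were scaled by the summed length of all exons counted for a gene, which can exceed that of a single transcript. In CPM per kb of exons averaged over the 9 libraries, they were highest for Ndufa1 (174) in complex I, Sdha (35.9) in complex II, Uqcrh (80.4) in complex III, Cox8a (156) in complex IV and Atp5a1 (111) in complex V. Ndufa1 is a small membrane-arm subunit of complex I, Sdha the flavoprotein of succinate dehydrogenase, Uqcrh the hinge protein between cytochrome c1 and cytochrome c, and Atp5a1 the alpha subunit of the ATP synthase head. The lowest tested members on the same scale were Ndufb2 (2.39), Sdhc (17.5), Uqcrc1 (20.9), Cox6b2 (0.426) and Atp5s (1.73). The assembly factors of complex I ranged from 1.2 CPM per kb for Ndufaf6 to 5.59 CPM per kb for Ndufaf3. That range also holds the subunits Ndufb2 and Ndufab1 (4.45), whose summed exons are long, at 5628 and 6883 bases. Unscaled by length, Ndufb2 averaged 13.5 and Ndufab1 30.7 CPM, above the 10.1 CPM of Ndufaf3. The median of the assembly factors per kb was 3.27, against medians of 22.3 for complex I and 43.2 for the 16 tested genes of complex IV.

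The cells expressed mainly the ubiquitous isoform of each complex IV subunit that has several. On the scale per length, Cox6b1 reached 137 CPM per kb and its testis isoform Cox6b2 0.426, while Cox4i1 reached 100.7 and Cox4i2, known from lung and hypoxia, 2.74. Cox6a1 reached 130.3 and Cox6a2, the isoform of heart and skeletal muscle, 4.37. Cox7a2 reached 69.4, against 0.517 for Cox7a1, and Cox7a2l, a relative of subunit 7a, reached 101.4. Ndufa4, a subunit of complex IV despite its name, reached 47.5, against 2.03 for its hypoxia-induced relative Ndufa4l2. The 3 genes that encode the same c-ring protein of complex V lay closer together, with 10.2 CPM per kb for Atp5g1, 36.3 for Atp5g2 and 40.2 for Atp5g3. Their summed exons differ, with 4912, 1675 and 2181 bases, and unscaled by length they averaged 49.9, 60.8 and 87.6 CPM.

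Taken over all counts, the members held 0.547%, 0.524% and 0.496% of the DH-LMP2A libraries, 0.529%, 0.524% and 0.559% of the kFRA libraries and 0.399%, 0.393% and 0.39% of the WT libraries. Every WT library thus lay below the 6 others. Immunoglobulin genes took 43.6% to 55.4% of the WT counts and 27.3% to 32.5% of the DH-LMP2A counts. Over the counts of all other genes, the member share was 0.722% to 0.752% in DH-LMP2A, 0.706% to 0.874% in WT and 0.945%, 0.74% and 1.02% in kFRA, so that DH-LMP2A and WT overlapped.

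The kFRA libraries did not form 1 group in these genes. After TMM scaling, which sets libraries to a common level over most genes, the members' mean log2 CPM was 5.36 in kFRA replicate 1, 4.94 in replicate 2 and 5.50 in replicate 3. It was 4.95 to 5.04 in DH-LMP2A and 4.83 to 5.11 in WT. Replicate 2 was the lowest of the 3 kFRA libraries in 84 of the 89 members (94.4%), against 37.9% of all genes tested. kFRA replicates 1 and 3 each lay above every DH-LMP2A library in 78 of the 89 members (87.6%), against 33.5% and 35.2% of all genes. kFRA replicate 2 did so in 11 (12.4%, against 29.5% of all genes), and lay below every DH-LMP2A library in 48 (53.9%, against 30.9%). Other values set replicate 2 apart as well: immunoglobulin genes took 29.2% of its counts, against 44.0% and 45.4% in replicates 1 and 3, and 8 cell cycle markers summed to 673.6 CPM, against 245.7 and 279.1 CPM. Its plasma cell markers summed to 20400 CPM, against 30480 and 32060 CPM, and its myeloid markers to 1528 CPM, against 881.1 and 871.3 CPM. B cell markers summed to 291.3 CPM, against 253.1 and 231.9 CPM. Mitochondrially encoded subunits took 0.927% of its counts, against 0.487% and 0.453%. The T cell and erythroid sums of replicate 2 lay between those of replicates 1 and 3. The part of these values in the member levels was not tested. The counts and medians of the members in the kFRA comparisons are therefore given with and without that library. Since the library was set aside after the members' own levels had shown it lowest, a rise of their calls without it follows in part from the choice.

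**Figure D1:**
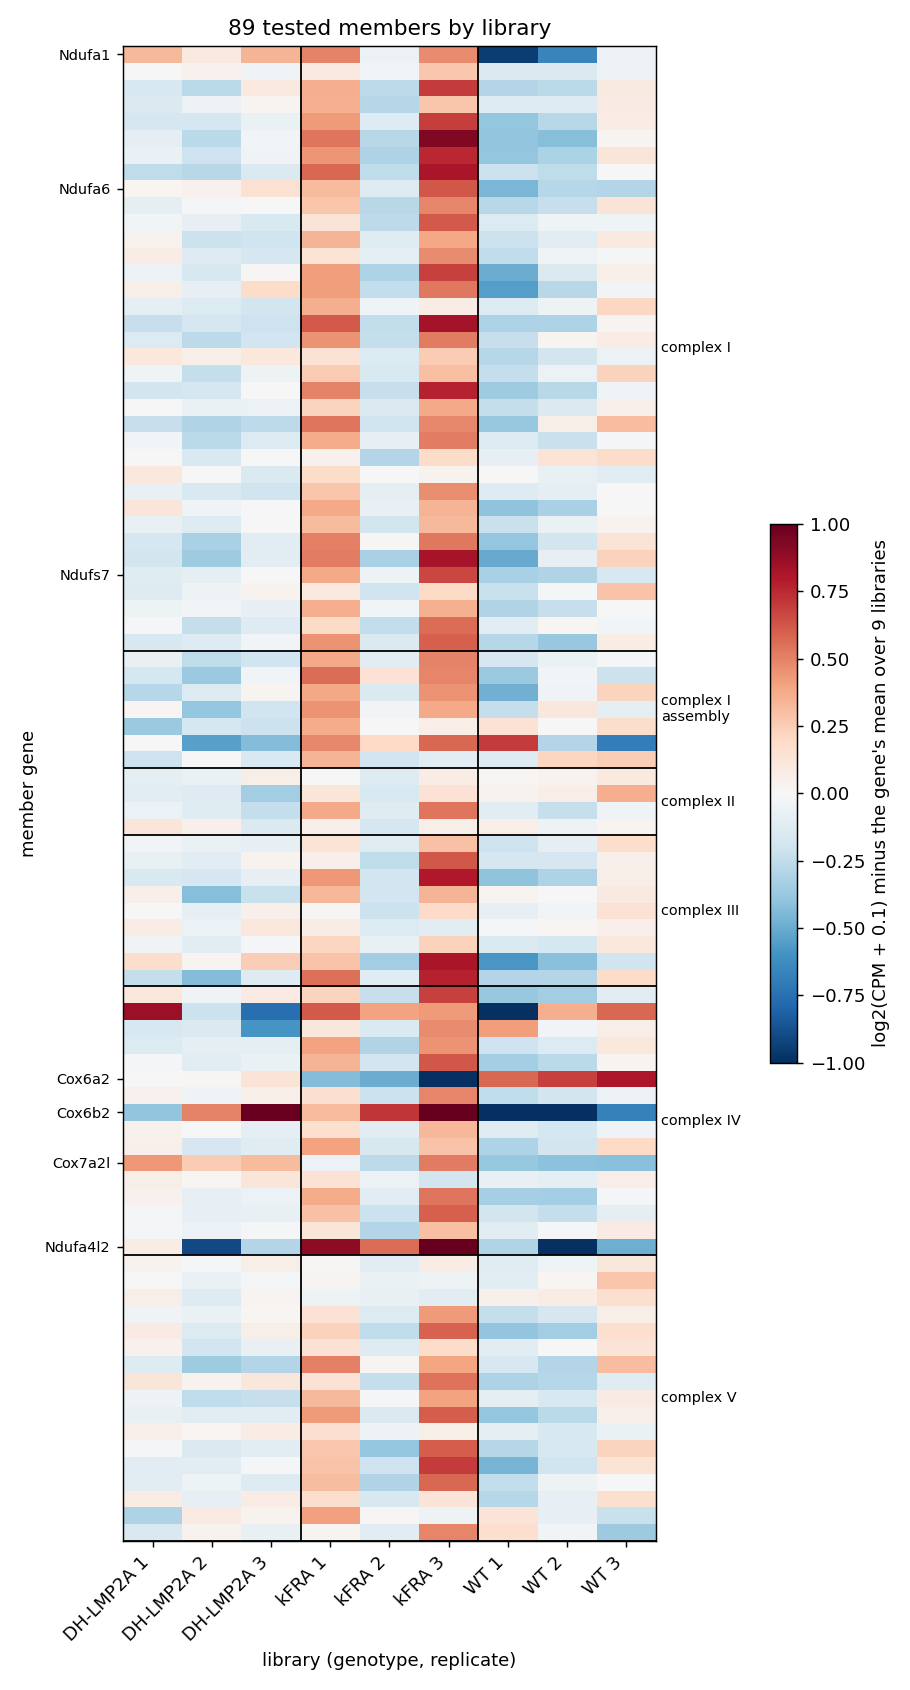
Level of each of the 89 tested members in each library, as log2(CPM + 0.1) minus the mean of that gene over the 9 libraries (colour, limited to 1 on either side), with genes in rows by complex, libraries in columns by genotype and names only for the 7 members that passed a test in any comparison. kFRA replicates 1 and 3 are above the gene mean in most rows, while kFRA replicate 2 resembles the DH-LMP2A and WT columns, and Cox6a2 runs against its neighbours.

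In kFRA against DH-LMP2A plasma cells no member passed the test (edgeR quasi-likelihood, adjusted p under 0.05). By comparison, 1.73% of all genes tested passed as higher and 3.30% as lower. The estimates leaned to one side all the same: 82 of 89 members were higher in kFRA, with a median log2 fold change of 0.28, against −0.00487 and 49.3% higher over all genes. At an unadjusted p under 0.05 there were 22 members (24.7%), a share near the 22.4% of all genes, and DESeq2's Wald test called 1 member at an adjusted p under 0.05, against 8.19% of the genes it tested. All 3 kFRA libraries lay above all 3 DH-LMP2A libraries in 11 members (12.4%), a share near the 11.6% of all genes.

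All 36 complex I subunits had estimates above 0, from 0.00 for Ndufb5 to 0.67 for Ndufa5, both accessory subunits, with a median of 0.31. For Ndufa5 the levels were 12.9, 12.7 and 13.9 CPM in DH-LMP2A and 23.0, 12.9 and 27.2 CPM in kFRA. Replicate 2 of kFRA sat inside the DH-LMP2A range and the other 2 well above it, and the estimate was 0.67 (SE 0.24, adjusted p = 0.149). All 7 assembly factors were also estimated higher, with a median of 0.46. Ndufaf2 was at 3.22, 2.78 and 3.57 CPM in DH-LMP2A and at 5.40, 4.04 and 5.14 CPM in kFRA, groups that did not overlap, with a log2 fold change of 0.61 (SE 0.21, adjusted p = 0.146). Ndufaf6 had the highest estimate, 0.77 (SE 0.39), at levels of 0.928 to 2.13 CPM in these 6 libraries, and Ndufaf7, a mitochondrial methyltransferase, had the lowest, 0.15.

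Estimates in complexes II, III and V differed between subunits. Sdha, the catalytic subunit of complex II, was at 129.9, 133.1 and 144.7 CPM in DH-LMP2A and at 139.9, 127.5 and 146.8 CPM in kFRA, with a log2 fold change of 0.02 (SE 0.11). Sdhc, a membrane anchor, had 0.43 (SE 0.17, adjusted p = 0.175), Sdhb, the iron-sulfur subunit, 0.23, and Sdhd, the other anchor, −0.03. In complex III the 4 core genes Cyc1, Uqcrfs1, Uqcrc1 and Uqcrc2 had a median of 0.09, and the 5 small subunits one of 0.37. Uqcrc2 had the lowest estimate of the complex, −0.10. The highest was Uqcrq, with 45.7, 39.8 and 49.2 CPM in DH-LMP2A and 78.9, 49.6 and 91.8 CPM in kFRA and a log2 fold change of 0.71 (SE 0.23, adjusted p = 0.121). Its groups did not overlap, by a margin of less than 1 CPM at kFRA replicate 2.

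In complex V the 5 genes of the F1 head (Atp5a1, Atp5b, Atp5c1, Atp5d and Atp5e) had a median of 0.00. Atp5a1 was at 356.3, 343.6 and 361.7 CPM in DH-LMP2A and at 350.8, 320.9 and 365.4 CPM in kFRA. Its log2 fold change was −0.03 (SE 0.13), and that of Atp5c1, the gamma subunit of the rotor, was −0.06 (SE 0.11). The c-ring genes had a median of 0.42, led by Atp5g1 with 0.58 (SE 0.18, adjusted p = 0.116). Its levels were 44.6, 38.1 and 39.7 CPM in DH-LMP2A and 69.3, 49.7 and 63.9 CPM in kFRA. Atp5g3 had 0.42 and Atp5g2 0.10, while Atp5h, of the peripheral stalk, had 0.43. In complex IV, Cox6a2 had the lowest estimate of all members, −0.76 (SE 0.26, adjusted p = 0.139), and Ndufa4l2 the highest, 1.40 (SE 0.37, adjusted p = 0.0643).

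**Figure D2:**
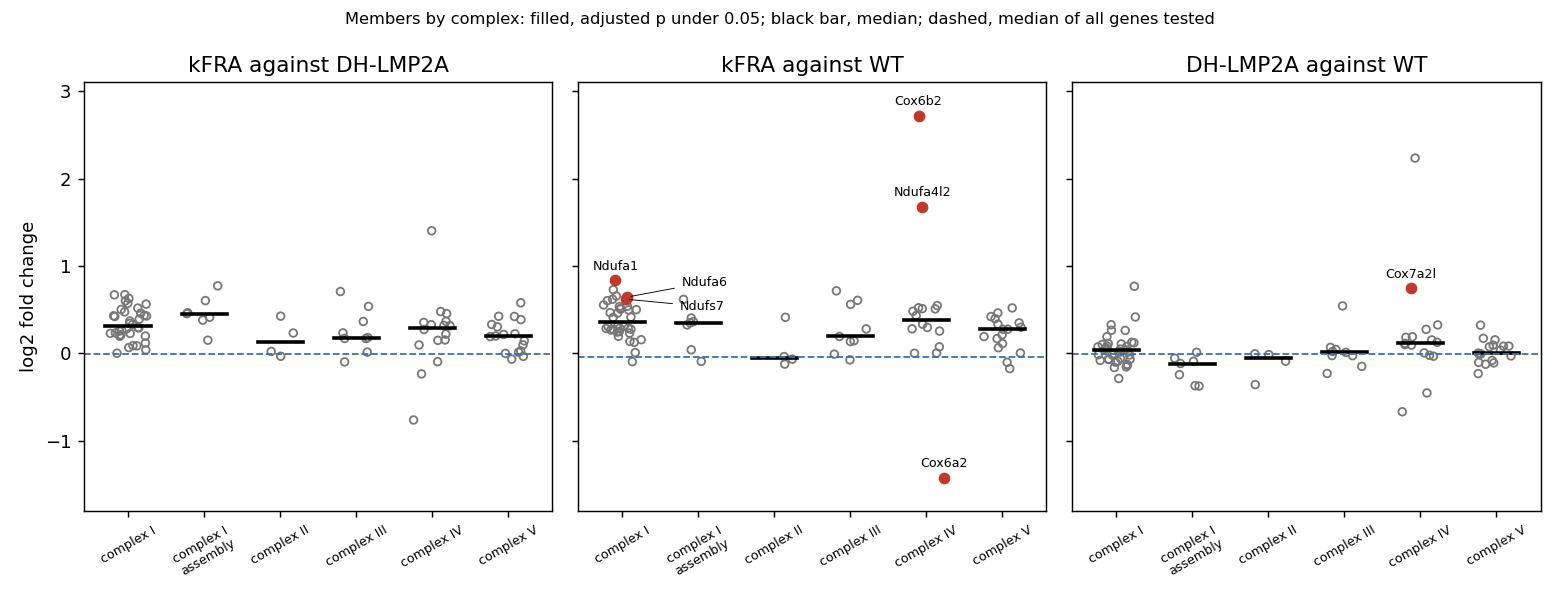
Log2 fold change of each tested member (points) by complex in the 3 comparisons, with black bars for the median of each complex and a dashed line for the median of all genes tested. Filled points passed an adjusted p of 0.05. In both kFRA comparisons the medians of complexes I, III, IV and V lie above the dashed line, from 0.18 to 0.38, and in DH-LMP2A against WT they lie between 0.00 and 0.12.

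Without kFRA replicate 2, 43 of the 89 members passed as higher in kFRA than in DH-LMP2A and none as lower, against 11.7% of all genes tested as higher in that fit. The median log2 fold change was then 0.485. The 43 were 24 of 36 complex I subunits, 3 of 7 assembly factors, 1 of 4 genes of complex II, 3 of 9 of complex III, 6 of 16 of complex IV and 6 of 17 of complex V. Within complex III they were 3 of the 5 small subunits and none of the 4 core genes. Within complex V they included all 3 membrane subunits Atp5k, Atp5l and Atp5j2 and 2 of the 3 c-ring genes, and none of the 5 genes of the F1 head. Ndufa5 then had a log2 fold change of 0.99 (adjusted p = 0.00407) and Uqcrq one of 0.99 (adjusted p = 0.00955), whereas Atp5a1 had 0.08 (adjusted p = 0.715) and Sdha 0.14 (adjusted p = 0.396). In the fits without any other single library no member passed.

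Between kFRA and WT, 5 members rose and 1 fell. Ndufa1, Ndufa6 and Ndufs7 of complex I and Cox6b2 and Ndufa4l2 of the complex IV group were higher in kFRA (5.62% of the 89 tested, against 6.68% of all genes), and Cox6a2 was lower (1.12%, against 11.1%). Neither share exceeds that of all genes. As in the comparison with DH-LMP2A, most estimates were above 0: 79 of 89 were higher, with a median log2 fold change of 0.31 (−0.04 over all genes), and 29 (32.6%) had an unadjusted p under 0.05, against 35.0% of all genes. All kFRA libraries lay above all WT libraries in 10 members (11.2%), against 14.2% of all genes. Both comparisons use the same kFRA libraries, so they are not independent of each other.

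Ndufa1 (chrX:37187588-37191163, minus strand, GRCm38) was at 98.1, 66.8 and 96.8 CPM in kFRA and at 35.9, 44.0 and 66.7 CPM in WT. The highest WT library came within 0.1 CPM of the lowest kFRA library. Its log2 fold change was 0.84 (SE 0.24, adjusted p = 0.0389). Ndufa6 (chr15:82350139-82354291, minus strand), which anchors the acyl carrier protein Ndufab1 to complex I, was at 42.8, 31.4 and 52.6 CPM in kFRA and at 24.9, 28.1 and 28.0 CPM in WT. The log2 fold change was 0.65 (SE 0.18, adjusted p = 0.0346). Ndufs7 (chr10:80249121-80256794, plus strand), a core subunit that carries the last iron-sulfur cluster before ubiquinone, was at 51.3, 37.9 and 62.4 CPM in kFRA and at 31.5, 31.9 and 35.2 CPM in WT, with a log2 fold change of 0.62 (SE 0.17, adjusted p = 0.0357). In all 3 genes every kFRA library lay above every WT library, and the DH-LMP2A means of 83.2, 36.0 and 37.5 CPM for Ndufa1, Ndufa6 and Ndufs7 lay between those of the other groups. These 3 calls rest on few libraries. Over the 9 fits that left out 1 library, Ndufa1 passed in 3 (adjusted p from 0.0101 to 0.137), Ndufa6 in 3 (0.00236 to 0.106) and Ndufs7 in 2 (0.00246 to 0.12), each missing the threshold without kFRA replicate 1, kFRA replicate 3, WT replicate 1, WT replicate 2 or DH-LMP2A replicate 1. Ndufa1 and Ndufs7 missed it also without DH-LMP2A replicate 2, and Ndufa6 and Ndufs7 without WT replicate 3.

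The largest differences from WT were in isoforms that these cells express at low levels. Ndufa4l2 (chr10:127514939-127517152, plus strand) was at 3.15, 2.47 and 4.77 CPM in kFRA, at 1.32, 0.765 and 1.15 CPM in WT and at 1.74, 0.835 and 1.33 CPM in DH-LMP2A. Its kFRA libraries lay above all 6 others, and the log2 fold change from WT was 1.68 (SE 0.38, adjusted p = 0.0164). It missed the threshold without kFRA replicate 3 or WT replicate 2 (adjusted p up to 0.07). Cox6a2 (chr7:128205435-128206387, minus strand) was at 1.98, 1.90 and 1.07 CPM in kFRA, 2.71, 2.74 and 2.98 CPM in DH-LMP2A and 4.10, 4.44 and 4.84 CPM in WT, so that no 2 groups overlapped. It fell by 1.43 on the log2 scale (SE 0.26, adjusted p = 0.00652) and passed in all 9 fits without 1 library, the highest adjusted p being 0.0248. Ndufa4l2 overlaps exons of Shmt2, and Cox6a2 exons of Itgad, an integrin gene, on the opposite strand. The strand setting of the counting is not given in the sources used here, so reads of either partner cannot be told apart and both values are uncertain. Cox6b2 (chr7:4751792-4753094, minus strand) rested on 39 counts over the kFRA libraries, 36 over DH-LMP2A and 6 over WT. Its log2 fold change from WT was 2.71 (SE 0.66, adjusted p = 0.0216), and the ratio of summed counts per scaled total was 6.94 (exact 95% interval 2.92 to 20.1, counting error only). It missed the threshold without kFRA replicate 3, WT replicate 1 or WT replicate 2 (adjusted p up to 0.0889).

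**Figure D3:**
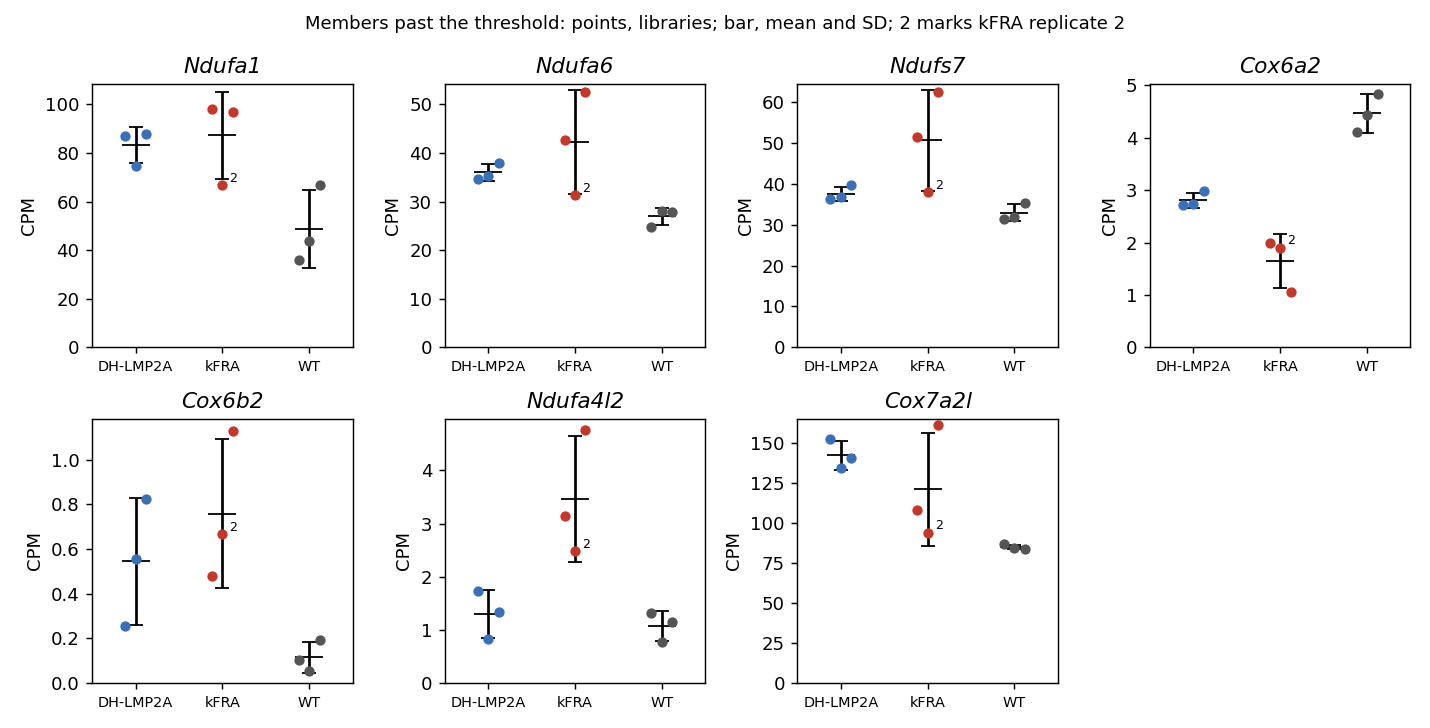
CPM of the 7 members that passed the test in at least 1 comparison, with a point for each library, a horizontal mark for the mean and bars for the SD (n = 3); a 2 marks kFRA replicate 2. Ndufa4l2 is highest and Cox6a2 lowest in kFRA, and the WT points of Cox7a2l lie together between 84.1 and 86.7 CPM.

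Among members that did not pass against WT, complex II had a median of −0.05, with Sdhc at 0.41 (SE 0.17, adjusted p = 0.111), Sdha at −0.06, Sdhb at −0.12 and Sdhd at −0.04. The small subunits of complex III had a median of 0.56, led by Uqcrh with 0.72 (SE 0.25, adjusted p = 0.0804), and its core genes one of 0.07. Uqcrh was at 116, 74.8 and 167.9 CPM in kFRA and at 63.6, 71.5 and 83.2 CPM in WT, groups that overlapped through kFRA replicate 2. In complex V, Atp5h, a peripheral-stalk subunit, had the highest estimate, 0.52 (SE 0.19, adjusted p = 0.0927), Atp5c1 the lowest, −0.17 (SE 0.11, adjusted p = 0.268), and the F1 head a median of 0.01, with Atp5e, its epsilon subunit, at 0.40. In complex I, Ndufc2 alone was below 0, at −0.09.

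Without kFRA replicate 2, 60 of 89 members passed as higher than in WT and 1, Cox6a2, as lower, while 18.8% of all genes passed as higher and 20.0% as lower. The 60 were 31 of 36 complex I subunits, 3 of 7 assembly factors, 1 of 4 genes of complex II (Sdhc), 4 of 9 of complex III, 11 of 16 of complex IV and 10 of 17 of complex V. The median log2 fold change was 0.55. Without kFRA replicate 3 the count was 1, and without WT replicate 2 it was also 1, Cox6a2 in both. It was 2 without WT replicate 1, and 3 without kFRA replicate 1 or without DH-LMP2A replicate 1.

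**Figure D4:**
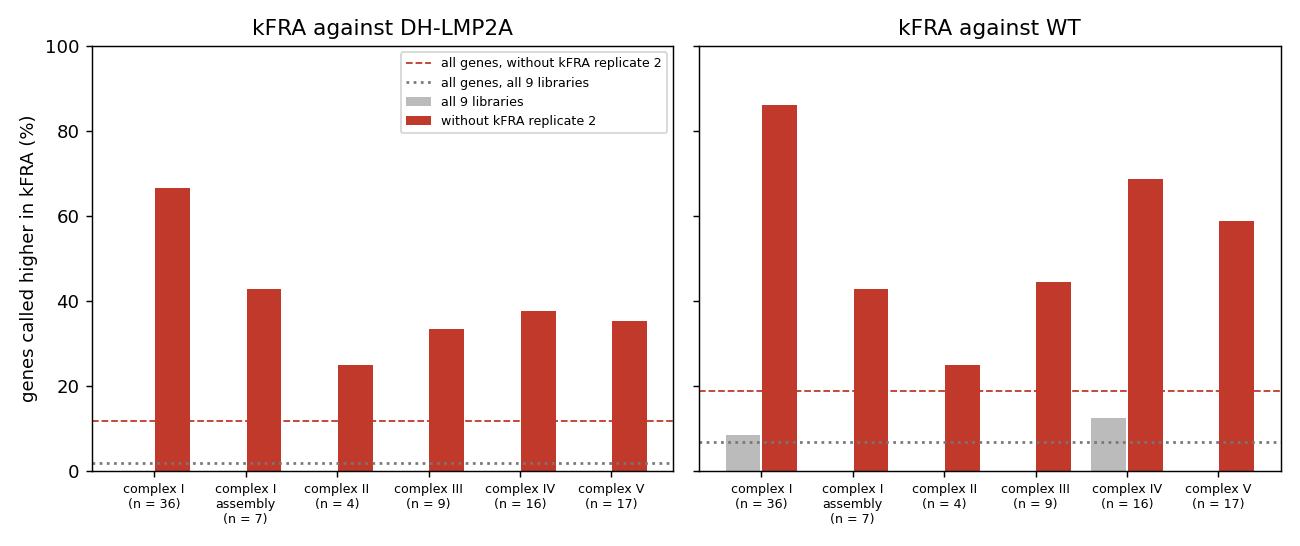
Percentage of the tested genes of each complex that passed as higher in kFRA, with all 9 libraries (grey bars) and without kFRA replicate 2 (red bars), the library left out after the members' levels were seen, and the same percentage over all genes tested (dotted line with all libraries, dashed line without the replicate). Without the replicate, 24 of 36 complex I subunits passed against DH-LMP2A and 31 of 36 against WT, while complex II had 1 of 4 in both.

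DH-LMP2A and WT plasma cells differed little in these genes. 1 member rose, Cox7a2l (1.12% of the 89 tested, against 5.07% of all genes), and none fell (7.30% of all genes). Of the 89, 47 were higher and 42 lower, with a median log2 fold change of 0.01 (−0.01 over all genes), and 7 (7.87%) had an unadjusted p under 0.05, against 26.6% of all genes. All DH-LMP2A libraries lay above all WT libraries in 13 members (14.6%), against 17.5% of all genes. Cox7a2l (chr17:83501919-83514333, minus strand), a relative of subunit 7a that joins complexes III and IV in supercomplexes, was at 152.5, 134.5 and 140.6 CPM in DH-LMP2A and at 86.7, 84.6 and 84.1 CPM in WT. Its log2 fold change was 0.74 (SE 0.19, adjusted p = 0.0314). In kFRA it was at 108.4, 93.9 and 161.3 CPM, also above every WT library, with 0.51 against WT (SE 0.19, adjusted p = 0.0887). The call between DH-LMP2A and WT missed the threshold in each of the 6 fits without 1 of their libraries (adjusted p up to 0.127), the estimate lying between 0.69 and 0.79. Higher estimates that did not pass were those of Cox6b2, with 2.23 (SE 0.66, adjusted p = 0.0588), and Ndufa1, with 0.77 (SE 0.24, adjusted p = 0.0664). The lowest estimate was that of Cox6a2, −0.67 (SE 0.25, adjusted p = 0.123). Sdhb was at 56.2, 55.3 and 47.4 CPM in DH-LMP2A and at 62.0, 63.4 and 78.0 CPM in WT, groups that did not overlap, with −0.36 (SE 0.14, adjusted p = 0.146).

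Scaling bears on both comparisons with WT. With library size in place of TMM, the median log2 fold change over all genes was 0.33 in DH-LMP2A against WT, and the members' median was 0.36, 0.03 above it. In kFRA against WT the medians were 0.17 over all genes and 0.49 over the members. With library size, 24 members (27%) passed as higher in DH-LMP2A than in WT and none as lower, against 14.5% and 3.65% of all genes. In kFRA against WT, 53 (59.6%) passed as higher and 1 as lower, against 16.6% and 6.46%.

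The deposited counts can be divided between near-identical copies. Transcripts of 25 members aligned over at least 150 bases at 95% identity or more to another gene that does not overlap them. Counts of such copies in the table were 53% of those of Atp5g2, 33.5% of Cox7c and of Ndufa12, 31.9% of Atp5l, 28.8% of Uqcr10, 28% of Ndufs5, 24.1% of Atp5g1 and 19.4% of Ndufs3. For Cox7a2l the share was 2.03%. The matches of Ndufaf7 were short stretches, of 150 to 165 bases, in unrelated genes such as Clasp1. Values of these genes are uncertain by that part. Of the 93 members, 32 have exons that another GENCODE M21 gene covers in part, and share the uncertainty of strand.

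Genes with a short summed exon length, which is not the length of a single transcript, were estimated higher in kFRA beyond this pathway. In the comparison with DH-LMP2A, members had medians on the log2 scale of 0.34 for 26 genes with under 1 kb of exons, 0.32 for 33 genes of 1 to 2 kb, 0.22 for 21 genes of 2 to 4 kb and 0.145 for 9 genes over 4 kb. Other genes with a mean of at least 10 CPM, immunoglobulin genes left out, had 0.15, 0.17, 0.07 and −0.12 in these classes. The filter of 10 CPM was not applied to the members, so the 2 sets differ in their low genes. Against WT the members had 0.448, 0.365, 0.276 and 0.137, and the other genes 0.38, 0.22, 0.08 and −0.12. The members lay above other genes of their class throughout both comparisons, but the class of over 4 kb holds only 9 members. Leaving out kFRA replicate 2, the members had 0.578, 0.55, 0.40 and 0.299 against DH-LMP2A and the other genes 0.357, 0.322, 0.163 and −0.15. Against WT the members then had 0.658, 0.587, 0.477 and 0.274 and the other genes 0.615, 0.40, 0.18 and −0.142. In DH-LMP2A against WT, with all libraries, the other genes had 0.19 under 1 kb and 0.03, 0.00 and 0.01 in the longer classes. The members had 0.01, 0.01, 0.02 and −0.02 there. What part of the member values goes with length was not tested.

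**Figure D5:**
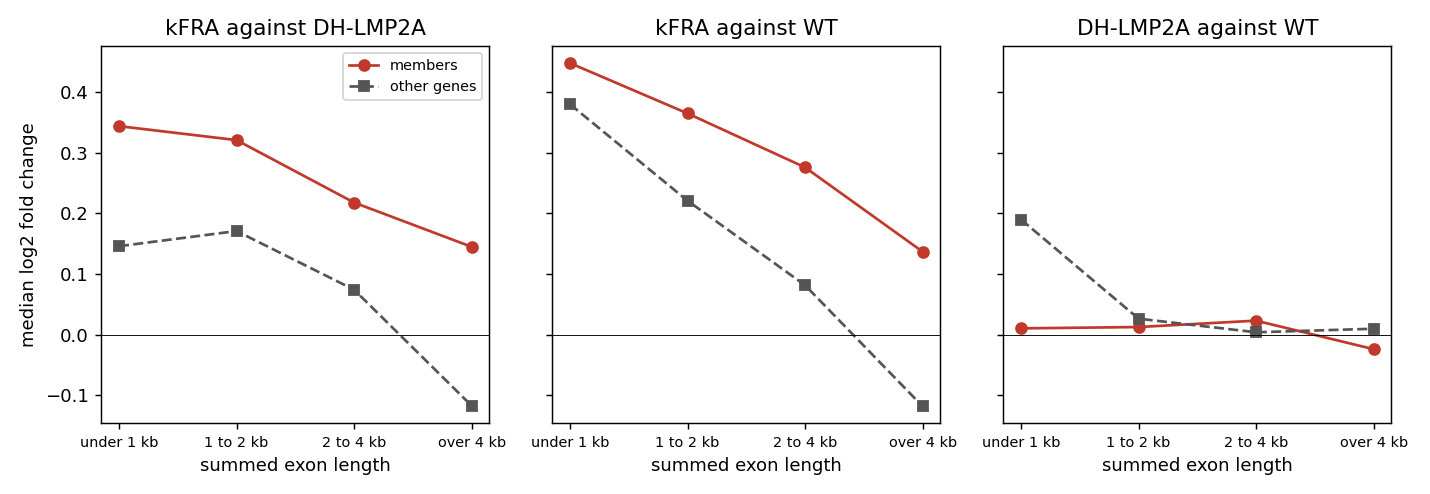
Median log2 fold change by class of summed exon length in the 3 comparisons. Circles are all tested members, at any level, and squares other genes with a mean of at least 10 CPM. In both kFRA comparisons the members' medians fall with length and lie above those of the other genes in every class. In DH-LMP2A against WT the members stay between −0.02 and 0.02, while the other genes under 1 kb reach 0.19.

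Other genes that build or run the respiratory chain were read from the same fit. None of the 12 tested mitochondrially encoded subunits passed in any comparison. mt-Co1, the catalytic subunit of complex IV, averaged 3220 ± 350 CPM in DH-LMP2A, 2553 ± 810 in kFRA and 3072 ± 348 in WT (SD, n = 3), with a log2 fold change of −0.34 (SE 0.25, adjusted p = 0.456) in kFRA against DH-LMP2A. Estimates against DH-LMP2A were above 0 in 8 of the 12, with a median of 0.09. mt-Co2, mt-Co3, mt-Atp6 and mt-Nd3 were counted at only 0.925 to 2.31 CPM in the group means. In the fit without kFRA replicate 2, mt-Nd6 rose (0.763, adjusted p = 0.0185) and mt-Nd4l and mt-Nd5 fell (−0.714, adjusted p = 0.0208, and −0.728, adjusted p = 0.0483) against DH-LMP2A, all 3 subunits of complex I, and mt-Co1 had −0.563 (adjusted p = 0.0988).

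Among 46 tested electron carriers and assembly factors outside the rule, 31 had kFRA estimates above DH-LMP2A, with a median of 0.17, and 1 rose. That gene was Foxred1, an assembly factor of complex I, with mean CPM of 25.7 ± 2.57 for DH-LMP2A, 42.1 ± 4.18 for kFRA and 28.5 ± 2.69 for WT (SD, n = 3). Its log2 fold change was 0.71 (SE 0.13, adjusted p = 0.0157) against DH-LMP2A and 0.56 (SE 0.13, adjusted p = 0.0197) against WT. Against WT, Cox16 (0.77, adjusted p = 0.0394), an assembly factor of complex IV, and Atpaf2 (0.75, adjusted p = 0.0224), one of complex V, rose too. Lyrm7, an assembly factor of complex III, fell by 1.61 (adjusted p = 0.0396), with a kFRA mean of 0.27 CPM. Cycs, cytochrome c, had 0.56 (adjusted p = 0.119) against DH-LMP2A. Without kFRA replicate 2, 15 of the 46 rose against DH-LMP2A (list median 0.317) and 16 against WT (0.413), and none fell. Over all genes tested, 11.7% rose against DH-LMP2A and 18.8% against WT in that fit. In that fit Foxred1 had 0.851 (adjusted p = 0.00589) against DH-LMP2A, Cycs passed (0.765, adjusted p = 0.0159), and Lyrm7 no longer did against WT (−1.21, adjusted p = 0.0752).

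Of the 14 citrate cycle genes only Idh2, the mitochondrial NADP-dependent isocitrate dehydrogenase, passed, with log2 fold changes of 0.64 (SE 0.15, adjusted p = 0.0411) against DH-LMP2A and 0.94 (SE 0.15, adjusted p = 0.00326) against WT in kFRA. The list had a median of 0.05 in both. Idh2 without kFRA replicate 2 had 0.787 (adjusted p = 0.01) and 1.09 (adjusted p = 0.00181), no other gene of the list passed, and the medians were 0.145 and 0.148. Among 12 tested regulators of mitochondrial genes, Myc fell by 0.935 (adjusted p = 0.0195) in kFRA against WT and no other passed in any comparison. Nrf1 had −0.115, Gabpa −0.45 (adjusted p = 0.134) and Tfam −0.03 in kFRA against DH-LMP2A. With that library left out, Esrra rose (0.561, adjusted p = 0.0444) and Gabpa fell (−0.529, adjusted p = 0.0223) against DH-LMP2A. Against WT, Polrmt, Tfam and Tfb1m then rose, by 0.388 to 0.791, and Myc, Ppargc1b and Yy1 fell, Myc by 0.884 (adjusted p = 0.0267). With all libraries and against DH-LMP2A, the median was 0.34 for the 12 tested members with an NRF1-type core in their promoter window and 0.27 for the 58 without one. The corresponding values for the ETS-type core were 0.26 (17 members) and 0.29 (53 members). Leaving out kFRA replicate 2, they were 0.579 with and 0.482 without an NRF1-type core, and 0.486 and 0.487 for the ETS-type core.

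The mitochondrial ribosome, which translates the mitochondrially encoded subunits, had estimates like those of the members. Of its 76 tested genes, 69 had kFRA estimates above DH-LMP2A, with a median of 0.31, and 1, Mrps10 (0.79, SE 0.16, adjusted p = 0.0222), rose. Against WT, 66 were higher, with a median of 0.30, and 6 of the 76 rose, against 6.68% of all genes. In DH-LMP2A against WT the median was 0.01 and none passed. Its mean log2 CPM was 4.26, 3.90 and 4.47 in kFRA replicates 1, 2 and 3, with replicate 2 again lowest, and 3.931 to 3.955 in DH-LMP2A. The cytosolic ribosome, with 87 genes tested, differed from this in kFRA against DH-LMP2A (median 0.00) and in DH-LMP2A against WT (0.46). In kFRA against WT 83 of the 87 were higher, with a median of 0.41. Without kFRA replicate 2, 36 of the 76 mitochondrial ribosome genes rose against DH-LMP2A (median 0.512) and 50 against WT (median 0.53). Of 88 cytosolic ribosome genes tested, 11 rose and 1 fell against DH-LMP2A (median 0.187), and 61 rose against WT (median 0.652). Over all genes in that fit, 11.7% rose against DH-LMP2A and 18.8% against WT. Replicate 2 had the lowest mean log2 CPM of the kFRA libraries in both ribosome lists, so the rise of their calls follows in part from leaving it out. These lists are described by counts and medians, and their difference from the members was not tested.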

How the data were processed

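RNA-seq libraries of 9 mice were analysed, 3 per genotype, grouped by the genotype in the labels. The authors deposited raw read counts per gene, without normalization, in a table of the featureCounts layout per the file headers. The submitters' processing notes name STAR 2.4.0a, featureCounts, Subread 1.5.0-p3 and DESeq2 and the builds mm10 and GRCm38. Their settings, strand included, are not given in the sources used here. Libraries were stranded and made from polyadenylated RNA, per the labels' protocols. The reads carry no molecular identifiers, so the floor and the interval given describe counting error alone.

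Members and gene lists were chosen with earlier results of these data known. Genes were filtered with edgeR's filterByExpr (edgeR 4.0.16, R 4.3.3), scaled by TMM and fitted with a quasi-likelihood model of 1 coefficient per genotype over all 9 libraries. Each pair of genotypes was tested 2-sided, with Benjamini-Hochberg adjustment over 14199 genes and a threshold of 0.05, and p-values measure the spread between mice. The 3 comparisons share libraries in pairs. The standard error (SE) is that of the log2 fold change. The fit was tested on simulated counts with known fold changes before use.

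The rule for naming members with values took those past the threshold, isoforms of 1 subunit and the 4 Sdh genes. It also took the highest and lowest member of each complex by level per length and by fold change in each comparison. Some of the fold-change extremes in the comparisons with WT, and the isoform Cox7b, are not printed. Ndufa4 and its relatives were counted with complex IV. A few other genes, such as Atp5k and Atp5l, are named to spell out a count. Lists of other pathway genes and cell markers were counted from the same fit. Coordinates are those of the deposited table, read as GRCm38: 92 of the 93 members overlapped the span of the same symbol in GENCODE M21. Copies were sought with BLAST+ 2.17.0, and figures drawn with matplotlib.

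The alternatives were DESeq2 size factors, library size, upper-quartile scaling, no filter, a mean of at least 5 CPM, immunoglobulin genes left out, a replicate block, a covariate of other spleen cell markers, a fit to the 6 libraries of a comparison alone, DESeq2 1.42.0 with its Wald test, thresholds of 0.01 and 0.1, and leaving out each library.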

Additional observations from a re-analysis of the deposited data

How the results depend on the processing

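The number of members past the threshold depended on the libraries and the scaling more than their direction did, and no named member that passed changed sign under any alternative. In kFRA against DH-LMP2A the count of 0 became 1 with the DESeq2 Wald test and 1 at an adjusted p under 0.1, and ranged from 0 to 43 when 1 library was left out. The highest value belongs to the fit without kFRA replicate 2. The median log2 fold change of 0.28 ranged from 0.139 to 0.485 in these fits. In kFRA against WT the count of 6 became 54 with library size, 18 with upper-quartile scaling, 3 with a mean of at least 5 CPM, 2 with the covariate of other spleen cell markers, 2 with only the 6 libraries, 1 at an adjusted p under 0.01 and 19 under 0.1. It ranged from 1 to 61 without 1 library, and the median of 0.31 from 0.186 to 0.554. In DH-LMP2A against WT the count of 1 became 24 with library size, 2 without the filter, 0 with the covariate, 4 with only the 6 libraries, 2 with the DESeq2 Wald test, 0 at an adjusted p under 0.01 and 3 under 0.1, and ranged from 0 to 3 without 1 library. Its median of 0.01 became 0.363 with library size, where the median of all genes was 0.334. The fits without 1 library and those with fewer genes or libraries differ by construction, and the cause of the other changes was not tested. The members' share of the counts, 0.522% in DH-LMP2A, 0.537% in kFRA and 0.394% in WT, became 0.736%, 0.902% and 0.781% over counts other than immunoglobulin. Of 116 values of named members that did not pass, 52 changed sign and 43 passed under some alternative.

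Replicate numbers name different mice, and the labels give no pairing by number. Correlations of the libraries' deviations from their group means lay between −0.211 and 0.196 for same-numbered libraries. For differently numbered ones they lay between −0.267 and 0.293. Whether libraries of the same number were handled together was not tested. With the replicate number as a block, 1 member passed in kFRA against DH-LMP2A, 8 in kFRA against WT and 3 in DH-LMP2A against WT. With 3 libraries a group, 1 library can set a call, and members near the floor, such as Cox6b2 and Cox7a1, are limited by depth.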
